A study of Mus musculus with 7 samples.

Results

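The 33 genes described here encode pattern recognition receptors and the proteins that carry their signals. They are 12 Toll-like receptors (TLRs), 4 co-receptors and chaperones, 4 TIR-domain adaptors, 5 kinases and ligases below them, 3 genes of the NOD branch, and 5 genes of the C-type lectin branch. They were taken by gene name from the 54532 genes of the deposited table, and all 33 were listed there. Levels are in FPKM (fragments scaled to gene length and to the library total), so that levels of different genes can be set side by side. Genes were tested where their mean over the 7 libraries reached 1 FPKM, which 32 of the 33 did. The exception was Tlr5.

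RNA was sequenced from GFP-positive cells sorted out of the spleens of IL-17GFP/+ transgenic mice (genotype label IL-17GFP+), in which GFP reports the IL-17 locus. For periodontitis, the first molars of both sides of the lower jaw were ligated with silk, and the health group of the same genotype was left without a ligature. The library names give 4 libraries of health, 1 to 4, and 3 of periodontitis, 2 to 4. Strain background, age and sex were not given in the labels used here, nor was it stated which libraries came from separate mice, so that p-values measure the spread between libraries, which may be technical.

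TLRs bind conserved microbial molecules, at the cell surface for lipids and proteins and in endosomes for nucleic acids, and they signal through the adaptors MyD88 and TRIF to NF-kB and interferon regulatory factors. NOD1 and NOD2 sense fragments of bacterial cell wall in the cytosol and signal through the kinase RIPK2, whereas dectin-type C-type lectins bind microbial sugars and glycolipids and signal through Syk and CARD9. In the spleen these sensors are best known from macrophages, monocytes, dendritic cells, neutrophils and B cells.

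Recovered read totals were 14161438 to 17891393 in health and 13513806 to 16717942 in periodontitis. Genes with a read numbered 16852 to 19721 in health and 12226 to 17546 in periodontitis, with the fewest in periodontitis 4. The values of 0 for Tlr5, Tlr8 and Ly96 below all fall in that library. Features under 200 bases held 3.31% to 9.63% of the FPKM in health and 1.40%, 36.7% and 24.2% in periodontitis 2, 3 and 4. The sorted cells are labelled T helper (Th17) cells, but red pulp macrophage genes were far above T cell genes in the health libraries. The summed FPKM of 14 red pulp macrophage markers, led by Hmox1, C1qa and C1qb, ran from 5747 to 16033 in health and from 444 to 989 in periodontitis, and all 14 passed the test as lower. The sum of 10 T cell markers, led by Trac, Trbc1 and Lat, ran from 207 to 440 FPKM in health and from 1391 to 3216 FPKM in periodontitis, and all 10 passed as higher. Neutrophil markers, led by S100a9, S100a8 and Ngp, summed to 16484 to 27040 FPKM in health and to 5938 to 24333 FPKM in periodontitis, with 5 of 11 lower. None of these 3 lists had a marker at 0 in every library of a group. The Y-linked genes Ddx3y, Kdm5d, Eif2s3y and Uty had 0 reads in every health library and were present in every periodontitis library, at 0.557 FPKM or more. Xist, the X-inactivation RNA, ran from 52.1 to 72.5 FPKM in health and from 0.135 to 1.35 FPKM in periodontitis. For every gene, periodontitis and the sex of the mice therefore cannot be told apart.

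Most receptors fell in periodontitis. None of the 5 kinases and ligases directly below them passed the test, though all 5 had a log2 fold change below 0 (median -0.73). Of the 32 tested genes, 18 were lower in periodontitis by limma on log2(FPKM + 1) at an adjusted p under 0.05, where 10.2% of all 12999 genes tested were lower. None was higher, by the same limma test or at an unadjusted p under 0.05 (0 genes) or by limma voom on recovered reads (0 higher and 17 lower), against 5.63% of all genes. Their median log2 fold change was -1.25, against -0.06 over all genes tested. In 25 of the 32 every periodontitis library lay below every health library, a pattern seen in 17.2% of all genes, and in none did every periodontitis library lie above, which 12.6% of all genes did. By role, the calls were 5 of 5 endosomal nucleic acid TLRs, 3 of 4 cell-surface TLRs, 3 of 4 co-receptors and chaperones, 3 of 5 C-type lectin genes, 2 of 4 adaptors, 1 of 3 NOD genes, 1 of 2 profilin-sensing TLRs and 0 of 5 kinases and ligases. These counts include 3 genes that reached the filter through their health libraries alone, which favours a call of lower: Tlr3, Tlr8 and Nod2. Of these, 2 were called lower (Tlr3 and Tlr8), and all 3 are among the 25 without overlap. In bulk libraries fewer cells of a type and less RNA per cell cannot be told apart. The macrophage marker sums given above moved with the falls, and their part in them was not tested. With every library rescaled to a common FPKM total, which shifted the median of all genes by -0.44, 28 of the 32 were lower, against 20.5% of all genes, and 13.3% of all calls were higher in place of 35.7%. The 10 genes added were Tlr1, Ly96, Myd88, Irak1, Irak2, Irak3, Irak4, Nod2, Clec4d and Clec4e.

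**Figure D1:**
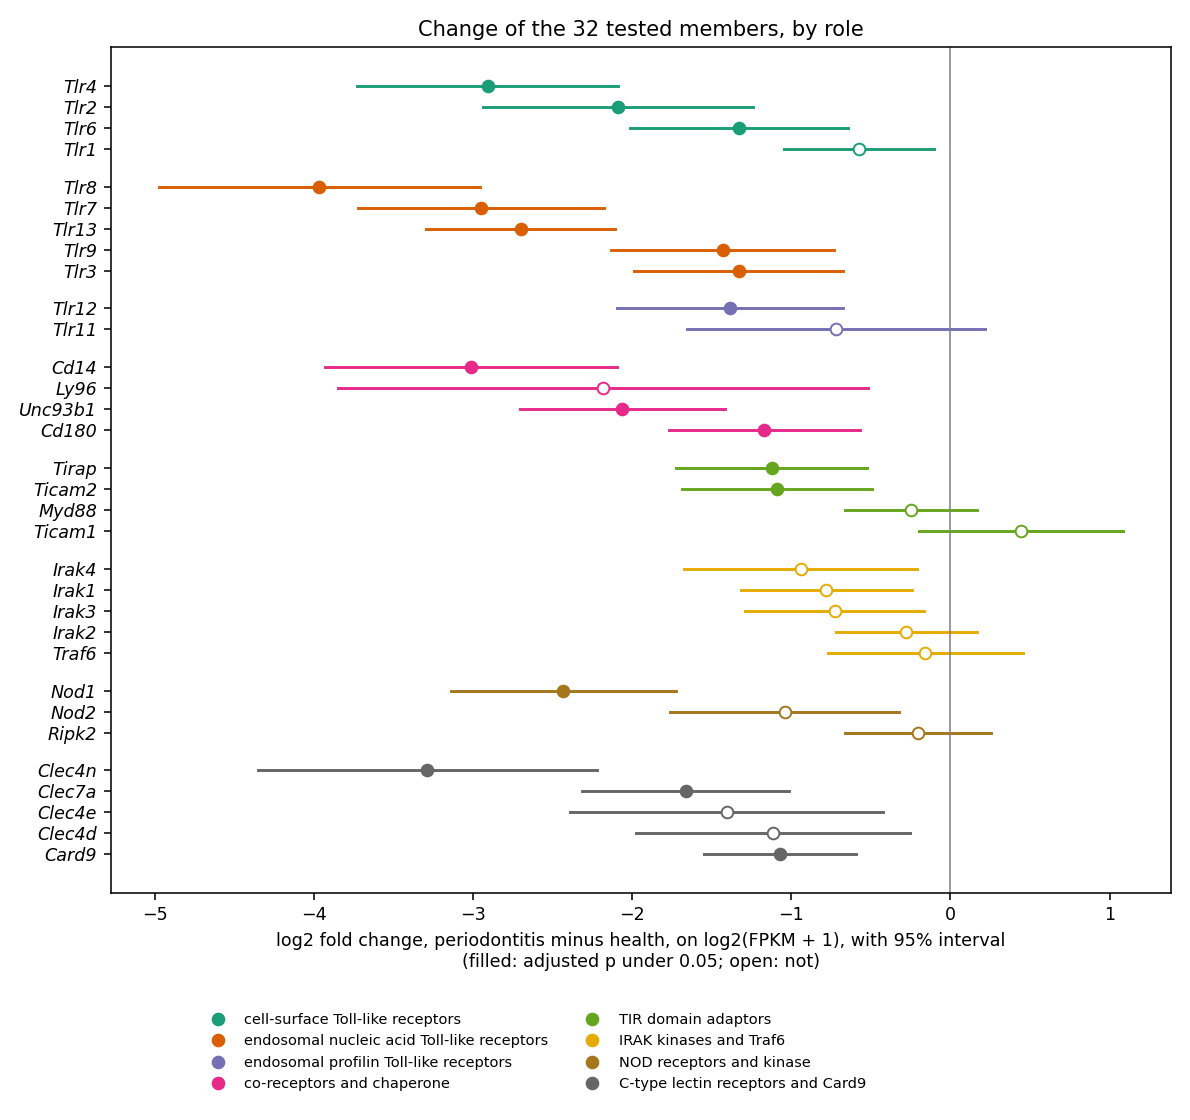
Log2 fold change of the 32 tested genes (periodontitis minus health, on log2(FPKM + 1)), grouped by role, with 95% intervals as bars. Filled points have an adjusted p under 0.05 and open points do not; 31 of the 32 points lie below 0, and Ticam1 alone lies above it.

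Among the cell-surface TLRs, the lipopeptide and lipopolysaccharide receptors Tlr2, Tlr4 and Tlr6 fell in periodontitis and Tlr1 did not pass the test. Tlr4, the lipopolysaccharide receptor (chr4:66827584-66930284, plus strand), was at 40.4, 21.9, 17.2 and 12.7 FPKM in the health libraries (in the order 1 to 4, as throughout) and at 1.78, 1.65 and 2.44 FPKM in the periodontitis libraries (in the order 2 to 4). The groups were far apart, with the lowest health library above every periodontitis library. The group means were 23.0 ± 12.2 FPKM (SD, n = 4) and 1.96 ± 0.422 FPKM (SD, n = 3), an 11.8-fold lower mean with a log2 fold change of -2.91 (SE 0.36; limma adjusted p = 0.00145). Tlr2, which binds lipopeptides as a dimer with Tlr1 or Tlr6 (chr3:83836272-83841767, minus strand), was at 33.8, 26.8, 21.5 and 9.79 FPKM in health and at 4.31, 3.99 and 4.23 FPKM in periodontitis. The spread was wide in health and narrow in periodontitis, and the groups did not overlap. The fall was 5.50-fold, with a log2 fold change of -2.09 (SE 0.37; limma adjusted p = 0.00682).

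Tlr1 and Tlr6 lie beside each other on chromosome 5, share part of their sequence and are the alternative partners of Tlr2. Tlr1, which with Tlr2 recognises triacylated lipopeptides (chr5:64924679-64933563, minus strand), was at 27.5, 25.1, 31.1 and 23.6 FPKM in health and at 14.4, 21.2 and 17.8 FPKM in periodontitis. All 3 periodontitis libraries lay below the health libraries, but the mean differed by only 1.51-fold (26.8 ± 3.28 against 17.8 ± 3.40 FPKM, SD, n = 4 and 3). Its log2 fold change of -0.58 (95% interval -1.04 to -0.11) did not pass over all genes (limma adjusted p = 0.0977). Tlr6, which with Tlr2 recognises diacylated lipopeptides (chr5:64952031-64960097, minus strand), was at 7.36, 6.49, 5.19 and 4.44 FPKM in health and at 0.831, 1.96 and 2.61 FPKM in periodontitis. The groups did not overlap, and the fall was 3.26-fold, with a log2 fold change of -1.33 (SE 0.30; limma adjusted p = 0.0189). The call for Tlr6 was lost without health 1 (0.0609) or health 2 (0.0632), and without the filter on low genes (0.0575).

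Because the genes are close copies, their reads may have been split between them in the authors' counting. Of the 50-base windows along their exons, 15.4% for Tlr1 and 12.3% for Tlr6 occur in another gene as well, and 454 windows are common to the pair. The longest identical run has 229 bases, lies inside both coding sequences and is shown because reads from within it fit either gene. It occupies chr5:64925537-64925765 in Tlr1 and chr5:64953828-64954056 in Tlr6 (GRCm38, both minus strand, GENCODE M21 transcripts), 5′ to 3′ along the RNA.
Tlr1 and Tlr6 shared run: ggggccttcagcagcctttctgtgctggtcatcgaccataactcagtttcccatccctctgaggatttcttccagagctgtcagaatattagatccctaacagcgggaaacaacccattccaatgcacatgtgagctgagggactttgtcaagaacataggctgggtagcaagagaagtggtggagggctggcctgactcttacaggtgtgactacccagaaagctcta
The levels of Tlr1 and Tlr6 are uncertain to that extent, and of the 33 genes 23 have no such window in common with another gene.

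Tlr5, the flagellin receptor (chr1:182954788-182976044, plus strand), was at the edge of detection in both groups. It was at 0.604, 0.670, 0.184 and 0.0854 FPKM in health, from 48, 54, 14 and 6 reads, and at 0.422, 0.174 and 0 FPKM in periodontitis, from 30, 14 and 0 reads. The groups overlapped, and Tlr5 was not tested.

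The endosomal receptors for nucleic acids all fell, and their 5 log2 fold changes had a median of -2.70. Tlr8 (chrX:167242696-167264329, minus strand), whose human counterpart binds breakdown products of single-stranded RNA, was at 47.7, 20.1, 14.6 and 14.0 FPKM in health, from 2841, 1216, 830 and 737 reads. In periodontitis it was at 0.413, 1.01 and 0 FPKM, from 22, 61 and 0 reads, and so near the floor in all 3 libraries. The 0 was in periodontitis 4, the library with the fewest genes with a read (12226). The fall was 50.8-fold between the means, with a log2 fold change of -3.97 (SE 0.44; limma adjusted p = 0.00105), the largest of the 32 genes. Tlr7, the receptor for single-stranded RNA (chrX:167304929-167330558, minus strand), was at 51.7, 31.1, 31.2 and 24.1 FPKM in health and at 4.85, 4.31 and 1.80 FPKM in periodontitis. Its groups were well separated, the fall was 9.45-fold, and the log2 fold change was -2.95 (SE 0.34; limma adjusted p = 0.00114). Tlr13, the mouse receptor for bacterial ribosomal RNA (chrX:106143204-106160493, plus strand), was at 34.5, 19.3, 17.8 and 20.0 FPKM in health and at 2.14, 3.01 and 2.56 FPKM in periodontitis. It was high in health 1 and tight within periodontitis, with an 8.91-fold fall and a log2 fold change of -2.70 (SE 0.26; limma adjusted p = 0.000712).

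The other two nucleic acid receptors are autosomal. Tlr9, the receptor for unmethylated CpG DNA (chr9:106222598-106226883, plus strand), was at 24.4, 13.8, 12.1 and 14.8 FPKM in health and at 3.44, 5.25 and 7.54 FPKM in periodontitis. The groups did not overlap, and the 3.01-fold fall had a log2 fold change of -1.43 (SE 0.31; limma adjusted p = 0.0158). Tlr3, the receptor for double-stranded RNA (chr8:45395665-45411080, minus strand), was at 4.27, 3.07, 3.11 and 3.59 FPKM in health and at 0.582, 0.491 and 1.41 FPKM in periodontitis. Health libraries were even and all above periodontitis, and the 4.24-fold fall had a log2 fold change of -1.33 (SE 0.29; limma adjusted p = 0.0162). The call for Tlr3 was lost without health 1 (0.0583) or health 4 (0.0518), under quantile normalization (0.0590) and without the filter on low genes (0.0504). Tlr3 and Tlr8, like Nod2 below, reached the filter on low genes through their health libraries alone, since their periodontitis means were below 1 FPKM. Tlr7, Tlr8, Tlr13 and the kinase gene Irak1 are the X-linked genes here, and the Xist and Y-linked values above separate the groups completely.

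Start-site sequences from RefSeq (GRCm38.p6) were used for 25 of the 33 genes. Cd14 and Ticam2, both called lower in periodontitis, were left out before counting, whether or not a sequence was available. The sequences ran over 300 bases, from 250 before to 50 after the start. They were searched on both strands for GAGGAAG, the core bound by the myeloid and B cell factor PU.1, and for TGANTCA, the core bound by AP-1. The start-site sequences of 4 genes are shown: the TLR with the largest fall, which holds neither core, the 2 TLRs that fell and hold the PU.1 core, and Tlr1, which holds it and did not pass the test. Capitals mark the PU.1 core in either orientation.
Tlr8, chrX:167264280-167264579, minus strand: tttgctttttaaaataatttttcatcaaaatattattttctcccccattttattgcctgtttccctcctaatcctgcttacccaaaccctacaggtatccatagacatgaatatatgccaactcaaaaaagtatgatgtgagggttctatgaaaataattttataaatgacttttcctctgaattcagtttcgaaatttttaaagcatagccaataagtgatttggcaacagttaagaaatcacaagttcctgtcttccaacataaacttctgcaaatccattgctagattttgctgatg
Tlr13, chrX:106143025-106143324, plus strand: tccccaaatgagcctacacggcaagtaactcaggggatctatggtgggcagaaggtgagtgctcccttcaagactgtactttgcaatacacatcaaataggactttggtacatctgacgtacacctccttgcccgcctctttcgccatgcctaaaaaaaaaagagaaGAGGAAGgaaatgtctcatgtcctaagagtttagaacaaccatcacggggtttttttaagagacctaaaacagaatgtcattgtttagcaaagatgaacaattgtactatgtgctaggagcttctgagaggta
Tlr9, chr9:106222348-106222647, plus strand: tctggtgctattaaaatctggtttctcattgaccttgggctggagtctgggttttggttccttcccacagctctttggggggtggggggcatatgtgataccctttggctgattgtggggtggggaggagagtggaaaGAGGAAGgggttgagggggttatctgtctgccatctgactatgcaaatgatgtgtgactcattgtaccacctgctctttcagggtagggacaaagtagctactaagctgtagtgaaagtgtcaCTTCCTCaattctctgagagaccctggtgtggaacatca
Tlr1, chr5:64933509-64933808, minus strand: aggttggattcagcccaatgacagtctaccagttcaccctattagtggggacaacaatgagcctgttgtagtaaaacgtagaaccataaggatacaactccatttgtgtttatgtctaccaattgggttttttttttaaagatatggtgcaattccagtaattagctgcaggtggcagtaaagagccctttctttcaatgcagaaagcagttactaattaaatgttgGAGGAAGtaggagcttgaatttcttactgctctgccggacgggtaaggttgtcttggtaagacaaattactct
The PU.1 core occurred in 7 of the 25 genes (28.0%), against 15.4% of the 27025 genes with a sequence. It occurred in 2 of the 12 that fell and in 5 of the 13 that did not pass or were not tested. The AP-1 core occurred in 1 of the 25, Tlr9, against 8.97% of all genes. Cd14 and Ticam2 are missing from the 12 that fell, and no such cut was made in the set of all genes. The shares of the 25 and of all genes therefore do not rest on the same selection. A match is a run of letters, not a bound site.

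The mouse TLRs for the parasite protein profilin were low in both groups. Tlr12, which acts in endosomes (chr4:128615443-128618619, minus strand), was at 8.12, 4.69, 7.34 and 5.92 FPKM in health and at 0.890, 3.01 and 1.998 FPKM in periodontitis. The groups did not overlap, and the 3.31-fold fall had a log2 fold change of -1.38 (SE 0.31; limma adjusted p = 0.0189). That call was lost without health 1 (0.0604) or health 3 (0.0609), with library weights (0.0559) and without the filter on low genes (0.0559). Tlr11, the other profilin receptor (chr14:50357914-50363663, plus strand), was at 2.58, 2.32, 2.41 and 4.14 FPKM in health and at 0.781, 0.545 and 3.45 FPKM in periodontitis. Periodontitis 4 lay among the health libraries, and the gene did not pass (limma log2 fold change -0.72, adjusted p = 0.276). Of 17 fits without pairing of libraries, the main fit included, Tlr11 passed in 1. That was the fit without periodontitis 4 (0.0365), and the limma adjusted p ran up to 0.499.

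**Figure D2:**
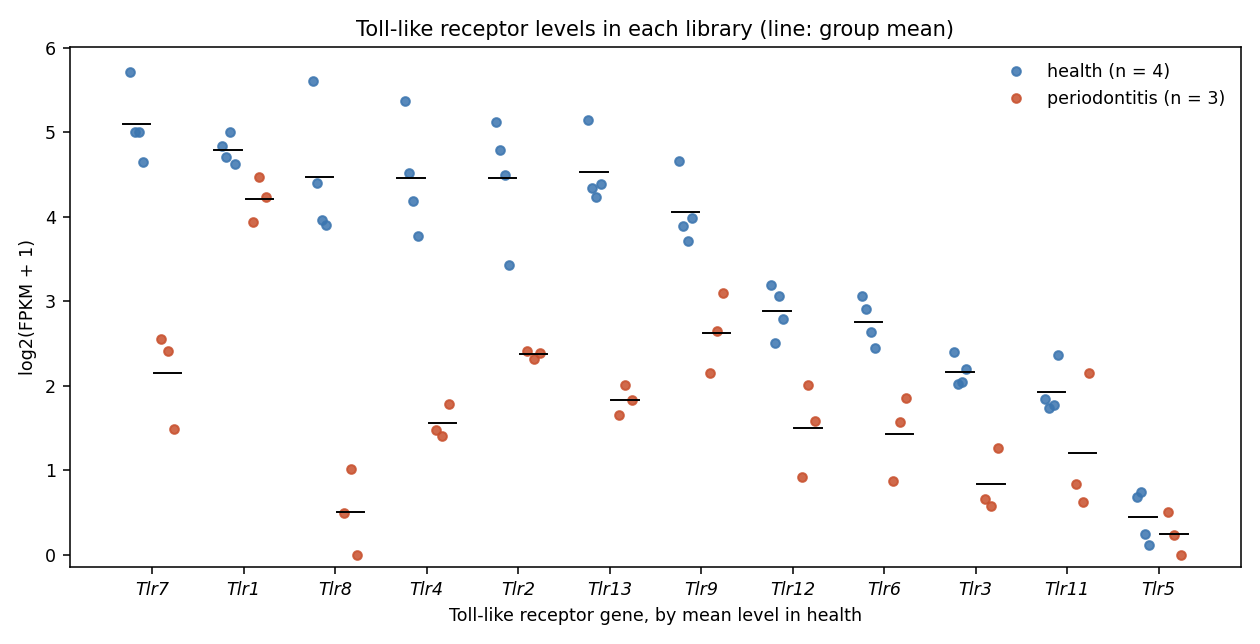
Level of each of the 12 TLR genes in each library, on log2(FPKM + 1), ordered by mean FPKM in health, with the means of the plotted values as lines. Each periodontitis point of 10 of the 12 genes lies below all health points; Tlr11 and Tlr5 overlap.

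The order of the TLRs by level also differed between the groups. In health the means ran from Tlr7 (34.5 FPKM) over Tlr1 (26.8), Tlr8 (24.1), Tlr4 (23.0), Tlr2 (23.0) and Tlr13 (22.9) to Tlr9 (16.3 FPKM), and neighbours in this order overlapped in their library ranges. Tlr12 (6.52 FPKM) and Tlr6 (5.87 FPKM) formed a second tier that overlapped neither the genes above nor those below it. Tlr3 (3.51 FPKM) and Tlr11 (2.86 FPKM) followed, and Tlr5 (0.386 FPKM) stood below all others. In periodontitis Tlr1 (17.8 FPKM) stood alone at the top, above every library of Tlr9 (5.41 FPKM), Tlr2 (4.18 FPKM) and Tlr7 (3.65 FPKM). Below Tlr1 each gene overlapped the next, through Tlr13 (2.57), Tlr12 (1.97), Tlr4 (1.96), Tlr6 (1.80) and Tlr11 (1.59) to Tlr3 (0.827), Tlr8 (0.475) and Tlr5 (0.198 FPKM).

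The summed FPKM of the 12 TLRs was 283.0, 175.4, 163.8 and 137.2 in health and 34.8, 46.6 and 45.9 in periodontitis. Tlr7 was the highest TLR in all 4 health libraries and Tlr1 in all 3 periodontitis libraries. In health 3 and health 4, however, Tlr7 (31.20 and 24.09 FPKM) was barely above Tlr1 (31.11 and 23.60 FPKM), so the top rank there is undecided. Tlr1 made up 9.73% to 19.0% of the sum in health and 38.9% to 45.5% in periodontitis. Shares of Tlr7 ran from 17.6% to 19.1% in health and from 3.92% to 13.9% in periodontitis, those of Tlr8 from 8.91% to 16.9% and from 0% to 2.17%. Tlr4 took 9.23% to 14.3% in health and 3.54% to 5.31% in periodontitis. The shares of Tlr2 overlapped, 7.14% to 15.3% against 8.56% to 12.4%, as did those of Tlr9, 7.37% to 10.8% against 9.90% to 16.4%. These shares describe the mix within each library and carry no test.

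**Figure D3:**
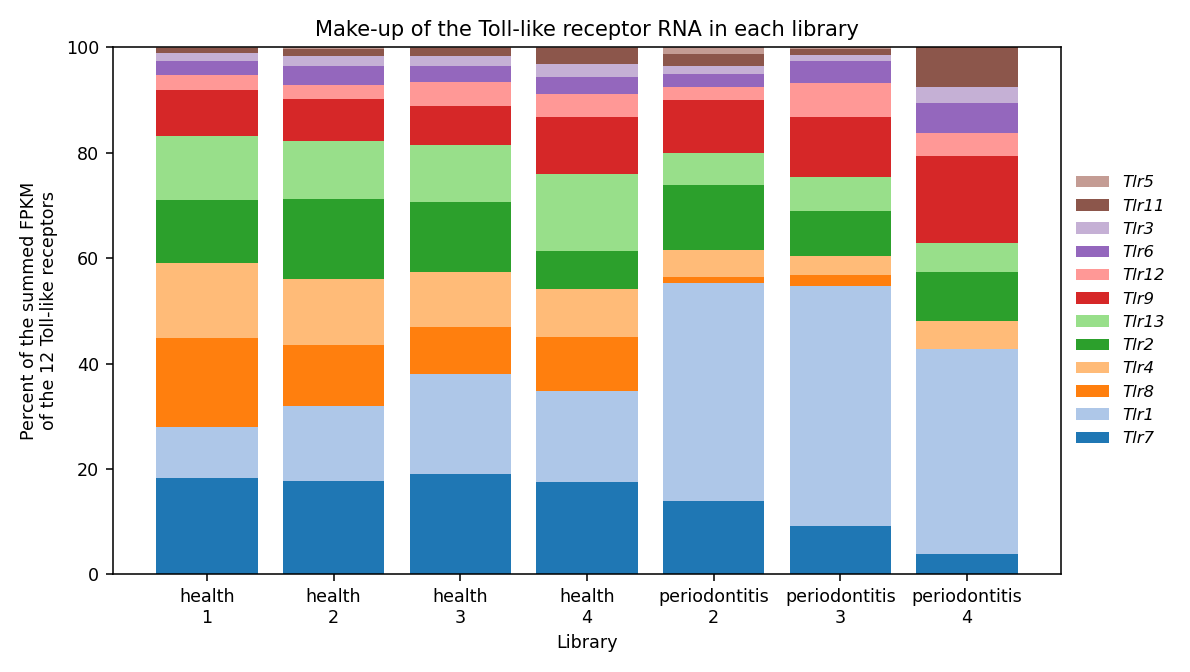
Share of each TLR gene in the summed FPKM of the 12 TLRs, one stacked bar per library, in percent. Tlr1 fills 38.9% to 45.5% of the periodontitis bars and 9.73% to 19.0% of the health bars, and Tlr8 is at most 2.17% in periodontitis.

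Of the co-receptors and chaperone of the TLRs, Cd14, Unc93b1 and Cd180 passed as lower, and Ly96 had a lower mean but did not pass. Cd14, which hands lipopolysaccharide to Tlr4 (chr18:36725074-36726736, minus strand), was at 209.8, 86.3, 73.0 and 74.8 FPKM in health and at 16.4, 8.40 and 10.9 FPKM in periodontitis. Health 1 was far above the others, and every health library was above every periodontitis library. The fall was 9.34-fold, with a log2 fold change of -3.01 (SE 0.40; limma adjusted p = 0.00203). Unc93b1, which carries the endosomal TLRs out of the endoplasmic reticulum (chr19:3935186-3949340, plus strand), was the most abundant of the 33 genes, with 436, 284, 327 and 235 FPKM in health against 92.7, 67.0 and 65.3 FPKM in periodontitis. Its groups were well separated, with a 4.28-fold fall and a log2 fold change of -2.06 (SE 0.28; limma adjusted p = 0.00226). Cd180, a TLR-like receptor best known from B cells (chr13:102693558-102739629, plus strand), was at 28.9, 19.7, 21.2 and 20.3 FPKM in health and at 9.51, 6.42 and 13.1 FPKM in periodontitis. These groups did not overlap either, and the 2.33-fold fall had a log2 fold change of -1.17 (SE 0.26; limma adjusted p = 0.0187), which passed the threshold no longer without health 1 (0.0503). B cell markers, led by Cd79a, Cd79b and Blk, summed to 331 to 819 FPKM in health and to 512 to 887 FPKM in periodontitis. Of the 10, 0 passed as lower and 1 as higher (Blk), and 7 had a log2 fold change below 0. Blk alone gave 15.1 to 45.6 FPKM of the sums in health and 117 to 139 FPKM of those in periodontitis. Ly96 (MD-2), the lipopolysaccharide-binding partner of Tlr4 (chr1:16688051-16709611, plus strand), was at 22.5, 7.74, 16.8 and 9.48 FPKM in health and at 9.82, 1.69 and 0 FPKM in periodontitis. Periodontitis 2 lay among the health libraries, and the gene did not pass (limma log2 fold change -2.19, SE 0.73, adjusted p = 0.0802). It passed without that library (0.0111), and in 4 of 18 fits without pairing of libraries, with a limma adjusted p of up to 0.190.

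The TIR-domain adaptors split. Myd88, the adaptor of nearly all TLRs (chr9:119335934-119341411, minus strand), was at 38.8, 42.2, 39.6 and 32.4 FPKM in health and at 32.3, 31.9 and 31.6 FPKM in periodontitis. Health 4 was level with the periodontitis libraries, the means differed 1.20-fold, and the gene did not pass (limma log2 fold change -0.25, 95% interval -0.66 to 0.17, adjusted p = 0.391). Ticam1 (TRIF), the adaptor of Tlr3 and of endosomal Tlr4 (chr17:56269319-56276786, minus strand), was at 9.44, 8.61, 10.1 and 7.90 FPKM in health and at 19.6, 12.2 and 8.15 FPKM in periodontitis. Its groups overlapped, and its log2 fold change of 0.44 (95% interval -0.20 to 1.08; limma adjusted p = 0.325) was the only positive one of the 32. Tirap, which brings Myd88 to Tlr2 and Tlr4 (chr9:35184551-35200291, minus strand), was at 7.71, 4.82, 4.94 and 5.54 FPKM in health and at 2.81, 2.16 and 1.37 FPKM in periodontitis. All health libraries were higher, and the 2.72-fold fall had a log2 fold change of -1.12 (SE 0.26; limma adjusted p = 0.0220). Ticam2 (TRAM), which links Tlr4 to Ticam1 (chr18:46559155-46574533, minus strand), was at 4.52, 3.67, 2.74 and 3.44 FPKM in health and at 0.840, 1.18 and 1.44 FPKM in periodontitis. The groups did not overlap, and the 3.12-fold fall had a log2 fold change of -1.09 (SE 0.26; limma adjusted p = 0.0247).

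Both adaptor calls were fragile. Tirap lost its call when any health library was left out (0.0513 to 0.0643) and without the filter on low genes (0.0630). Ticam2 lost it without any health library (0.0502 to 0.0837), without periodontitis 2 (0.0525), under quantile normalization (0.0748), by limma voom (0.0682) and without the filter (0.0750). Ticam2 shares 14.6% of its 50-base windows with other genes, mostly with Tmed7, which overlaps it on the same strand, so that its reads may be split. Tirap overlaps Srpr (39.1 FPKM in health) and Myd88 overlaps Acaa1a (27.1 FPKM in health) on the opposite strand, and the use of strand in counting is not given in the sources used here.

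None of the 5 genes that act directly below Myd88 passed the test, although the periodontitis libraries lay below the health libraries in 4 of them. Irak4, the kinase that opens the cascade, was at 18.4, 14.7, 12.7 and 13.2 FPKM in health and at 7.40, 11.9 and 3.95 FPKM in periodontitis, without overlap (limma log2 fold change -0.94, adjusted p = 0.0858). Irak1, its X-linked substrate kinase, was at 37.0, 27.2, 30.7 and 30.7 FPKM in health and at 17.5, 23.9 and 13.3 FPKM in periodontitis, also without overlap (limma log2 fold change -0.78, adjusted p = 0.0577). Irak3 (IRAK-M), the inhibitory member best known from macrophages, was at 9.75, 8.19, 8.18 and 11.2 FPKM in health and at 4.06, 7.57 and 4.45 FPKM in periodontitis (limma log2 fold change -0.73, adjusted p = 0.0827). Periodontitis 3 was the highest periodontitis library for these 3 kinases, and all 3 passed without it, with limma adjusted p of 0.0258 for Irak4, 0.0272 for Irak1 and 0.0270 for Irak3. Of 18 fits without pairing of libraries, Irak4 passed in 2, Irak1 in 3 and Irak3 in 2. Their limma adjusted p ran up to 0.221, 0.159 and 0.268. Irak2, a kinase of the sustained response, was at 14.9, 13.1, 11.8 and 11.6 FPKM in health and at 8.73, 11.3 and 11.3 FPKM in periodontitis (limma log2 fold change -0.28, adjusted p = 0.368). Traf6, the ubiquitin ligase that they activate, was at 6.24, 6.92, 7.36 and 6.80 FPKM in health and at 3.57, 7.12 and 8.31 FPKM in periodontitis, with overlap on both sides (limma log2 fold change -0.16, 95% interval -0.77 to 0.46, adjusted p = 0.730), and its log2 fold change was 0.15 without periodontitis 2. Irak4 overlaps Twf1 and Irak3 overlaps Tmbim4 on the opposite strand.

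In the NOD branch the receptor Nod1 fell and the shared kinase did not pass. Nod1, the cytosolic sensor of a peptidoglycan fragment typical of Gram-negative bacteria (chr6:54923949-54972612, minus strand), was at 80.4, 57.8, 50.9 and 32.9 FPKM in health and at 6.89, 10.6 and 9.79 FPKM in periodontitis. The groups were well separated, with a 6.09-fold fall from 55.5 ± 19.6 to 9.10 ± 1.96 FPKM (SD, n = 4 and 3) and a log2 fold change of -2.43 (SE 0.31; limma adjusted p = 0.00165). Nod2, the sensor of muramyl dipeptide (chr8:88647315-88688474, plus strand), was at 4.42, 3.09, 2.46 and 2.38 FPKM in health and at 0.617, 0.736 and 1.65 FPKM in periodontitis. Its groups did not overlap, but the gene, which reached the filter through health alone, did not pass (limma log2 fold change -1.04, adjusted p = 0.0587). Nod2 passed without periodontitis 4 (0.0301), and in 2 of 17 fits without pairing of libraries, with a limma adjusted p of up to 0.172. Ripk2, the kinase of both (chr4:16122733-16163647, minus strand), was at 7.12, 7.76, 9.02 and 7.70 FPKM in health and at 5.88, 6.08 and 8.36 FPKM in periodontitis, with overlap (limma log2 fold change -0.21, 95% interval -0.67 to 0.26, adjusted p = 0.530).

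Among the C-type lectin receptors, dectin-2 and dectin-1 fell, as did their adaptor. Clec4n (dectin-2), a receptor for fungal mannans (chr6:123229843-123247021, plus strand), was at 332, 147, 207 and 118 FPKM in health and at 23.0, 8.80 and 28.8 FPKM in periodontitis. Every health library was above the highest periodontitis library, and the 9.94-fold fall had a log2 fold change of -3.29 (SE 0.47; limma adjusted p = 0.00263). Clec7a (dectin-1), the beta-glucan receptor (chr6:129461591-129472779, minus strand), was at 11.9, 25.3, 21.5 and 20.5 FPKM in health and at 6.97, 4.31 and 5.05 FPKM in periodontitis. Unlike most of the TLRs it was lowest of the health libraries in health 1. The groups did not overlap, and the 3.64-fold fall had a log2 fold change of -1.66 (SE 0.28; limma adjusted p = 0.00557). Card9, the adaptor below these lectins (chr2:26352176-26360918, minus strand), was at 13.8, 18.5, 19.1 and 20.5 FPKM in health and at 8.95, 8.22 and 6.80 FPKM in periodontitis. Again all health libraries were higher, with a 2.25-fold fall and a log2 fold change of -1.07 (SE 0.21; limma adjusted p = 0.0101).

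The other two lectins of the cluster on chromosome 6 did not pass, and their groups overlapped. Clec4d (chr6:123262111-123275265, plus strand), which pairs with the mycobacterial glycolipid receptor Clec4e, was at 4.41, 13, 10.4 and 8.40 FPKM in health and at 4.55, 4.32 and 1.85 FPKM in periodontitis (limma log2 fold change -1.11, adjusted p = 0.0837). Health 1 lay among the periodontitis libraries, and the gene passed without it (0.0381). In all, Clec4d passed in 2 of 18 fits without pairing of libraries, with a limma adjusted p of up to 0.247. Clec4e (Mincle; chr6:123281789-123289870, minus strand) was at 3.22, 8.31, 4.14 and 6.09 FPKM in health and at 0.502, 0.910 and 3.35 FPKM in periodontitis (limma log2 fold change -1.41, adjusted p = 0.0605). Periodontitis 4 was just above the lowest health library, and the gene passed without periodontitis 4 (0.0131). In all, Clec4e passed in 4 of 17 fits without pairing of libraries, with a limma adjusted p of up to 0.156.

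The falls of the 18 genes that passed were set beside that of the red pulp macrophage markers in the same libraries. In each library the mean log2(FPKM + 1) of the 14 markers was subtracted from the value of each of the 18 genes, and the differences were compared between the groups. The marker mean itself was 3.99 log2 units lower in periodontitis (8.64 in health and 4.65 in periodontitis). On this scale a gene cannot fall by more than its own health level, and for 5 of the 18, Tlr3, Ticam2, Tirap, Tlr6 and Tlr12, that level (2.16 to 2.89) was below the marker fall, so that their relative difference could only be above 0. Of the other 13 genes, Tlr9 (4.06), Card9 (4.23), Clec7a (4.33), Tlr2 (4.46), Tlr4 (4.46), Tlr8 (4.47), Tlr13 (4.53) and Cd180 (4.54) could only just have reached the marker fall. For these a relative difference near 0 would have needed levels near 0 FPKM, so that a value above 0 says little. Of the 13 genes, 11 had a 95% interval of the relative difference above 0, a smaller fall than that of the marker mean on this scale. The marker list was chosen with earlier results of these data known. Tlr8 was not separated from the marker mean, within a wide interval (0.02, -1.02 to 1.07; exact two-sided permutation p = 0.914). Clec4n was also not separated from it (0.70, -0.06 to 1.47; exact permutation p = 0.114), except without periodontitis 3, where the interval was 0.47 to 1.55. The genes next above them were Cd14 at 0.98 (0.55 to 1.40), Tlr7 at 1.04 (0.04 to 2.04), Tlr4 at 1.08 (0.62 to 1.55) and Tlr13 at 1.29 (0.52 to 2.06). At the other end were Tlr9 at 2.56, Cd180 at 2.82 and Card9 at 2.92 (1.45 to 4.39). For each of the 11, the exact two-sided permutation p was 0.0571, the smallest that 4 against 3 libraries can give, and 0.0643 after Benjamini-Hochberg adjustment over the 18. With a pseudocount of 0.1, where all 18 genes could have reached the marker fall of 4.10, the interval lay above 0 for 15, the 5 low genes among them (2.02 to 2.67). On that scale Tlr7 (0.83, -0.39 to 2.05) was no longer separated and Tlr8 turned to -1.68 (-4.24 to 0.87). Tlr8 was also below 0 without health 3 (-0.09) and without periodontitis 3 (-0.41). The interval of Tlr7 also reached 0 when any library other than periodontitis 4 was left out (values of 0.73 to 1.11), and that of Clec7a did without periodontitis 2 or 3 (2.26 and 2.28).

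**Figure D4:**
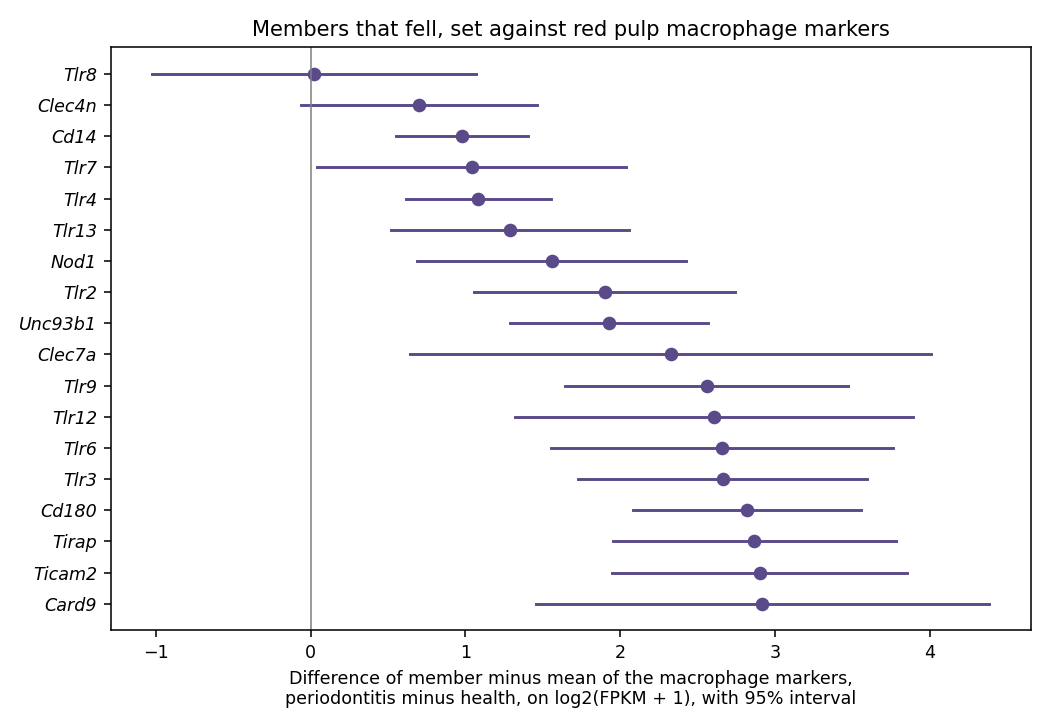
Difference between periodontitis and health of each gene that fell, after subtracting the mean of 14 red pulp macrophage markers in the same library, on log2(FPKM + 1), with 95% intervals. The line at 0 marks a change equal to that of the markers, and the intervals of Tlr8 and Clec4n cross it. Tlr3, Ticam2, Tirap, Tlr6 and Tlr12 could not have reached it on this scale.

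Markers of other cell types that use these receptors were detected in both groups. Conventional dendritic cell markers, led by Itgax, Batf3 and Dpp4, summed to 58.3 to 64.6 FPKM in health and to 26.4 to 37.2 FPKM in periodontitis, with 3 of 7 tested lower (Itgax, Batf3 and Clec9a). Marginal zone macrophage markers, mainly Siglec1 and Marco, summed to 40.6 to 90.3 FPKM and to 1.68 to 5.92 FPKM, with 2 of 2 tested lower. Monocyte markers, led by Lyz2, Chil3 and Treml4, summed to 1839 to 3217 FPKM and to 1073 to 2227 FPKM, with 1 of 8 tested lower (Treml4) and 1 higher (Ccr2). Plasmacytoid dendritic cell markers, led by Bst2, summed to 136 to 196 FPKM and to 78.2 to 169 FPKM, with 0 of 4 tested lower. Nearly all of this sum was Bst2, at 124 to 185 FPKM in health and 71.8 to 162 FPKM in periodontitis. The other markers were low, with Siglech at a mean of 2.62 FPKM in health and 2.03 FPKM in periodontitis. The part of each of these cell types in the falls of the receptors was not tested.

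The ratios of related genes are given for 8 pairs picked after their values were seen. On values of FPKM + 1, the log2 ratio of Tlr1 to Tlr6 was 2.03 in health and 2.79 in periodontitis, a difference of 0.75 (95% interval 0.12 to 1.39). That of Tlr2 to Tlr1 moved from -0.33 to -1.84, a difference of -1.51 (-2.60 to -0.43). Tlr7 to Tlr8, neighbours on the X chromosome, moved from 0.63 to 1.64, a difference of 1.02 (0.28 to 1.75). Ticam1 to Ticam2 moved from 1.13 to 2.66, a difference of 1.53 (0.45 to 2.61), and Nod1 to Nod2 from 3.75 to 2.35, a difference of -1.39 (-2.01 to -0.77). The values of the other 3 pairs, Clec4n to Clec4d, Clec4n to Clec4e and Cd14 to Ly96, had intervals that included 0. Because the pairs were chosen for their values, these differences are a description and carry no test. The + 1 also shrinks ratios with a low member: for Tlr7 and Tlr8 the means themselves were 9.45-fold and 50.8-fold lower, as given above.

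The wider pathway was described with 6 lists of genes outside the 33, whose counts stand beside 10.2% lower and 5.63% higher over all genes tested. Of 14 tested C-type lectin receptors 9 were lower and 0 higher, and the median log2 fold change was -1.73. The 4 with the smallest p were the mannose receptor Mrc1, which is also one of the macrophage markers (236 ± 135 FPKM in health and 8.27 ± 0.593 in periodontitis, SD, n = 4 and 3), Clec4a3, Clec4a1 and Clec5a. Of 10 NLR family genes 6 were lower and 1 higher (median -1.57). Naip5, a sensor of flagellin, was at 18.7 ± 4.09 FPKM in health against 2.15 ± 0.674 FPKM in periodontitis, and Nlrp3, the inflammasome sensor, at 9.18 ± 1.60 and 0.905 ± 0.788 FPKM (SD, n = 4 and 3). Nlrp1b and Naip6 also passed as lower. Nlrp3, Nlrp1b and Naip6, 3 of the 6 lower NLR genes, reached the filter through health alone, since their periodontitis means were below 1 FPKM. Nlrc3, an inhibitory NLR that T cells express, rose from 5.60 ± 1.97 to 14.9 ± 6.04 FPKM (SD, n = 4 and 3; limma adjusted p = 0.0451).

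Of 9 cytosolic nucleic acid sensor genes 4 were lower and 1 higher (median -0.83), again beside 10.2% and 5.63% of all genes. Ifi204, Ifih1 (MDA5), its adaptor Mavs and Mb21d1 (cGAS) fell, with log2 fold changes of -3.11, -1.56, -1.07 and -1.42 (limma adjusted p = 0.000943, 0.0119, 0.0211 and 0.0481). Tmem173 (STING), the adaptor below cGAS, was at 21.2, 28.3, 29.0 and 23.8 FPKM in health and at 67.4, 38.8 and 47.5 FPKM in periodontitis. All periodontitis libraries were above health, and the gene rose by 0.95 on the log2 scale (limma adjusted p = 0.0301). Among 12 accessory and inhibitory TLR genes 6 were lower, 1 of them tested through health alone, and 1 was higher (median -1.29). Ly86 (MD-1), the partner of Cd180, fell from 44.2 ± 11.7 to 11.9 ± 4.17 FPKM, and the TLR chaperone Cnpy3 from 43.9 ± 7.27 to 22.1 ± 5.95 FPKM (SD, n = 4 and 3; limma adjusted p = 0.00422 and 0.0249). Nrros, an inhibitor of TLR signalling, and Slc29a3, a lysosomal nucleoside transporter, fell by 1.47 and 1.37 on the log2 scale. Sigirr, an inhibitory receptor of the interleukin-1 and TLR pathway, was at 6.57, 9.82, 12.5 and 11.1 FPKM in health and at 62.4, 50.9 and 26.5 FPKM in periodontitis. All periodontitis libraries were above health, and the gene rose with a log2 fold change of 2.06 (SE 0.33; limma adjusted p = 0.00422).

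Of 26 tested genes of the shared downstream signalling 8 were lower and 0 higher (median -0.34), beside 10.2% lower and 5.63% higher over all genes, and the 4 with the smallest p were Syk, Irf5, Plcg2 and Prkcd. Syk, the kinase below the C-type lectins, fell from 77.5 ± 11.3 to 17.4 ± 5.39 FPKM, and Irf5, the interferon regulatory factor used by Myd88, from 76.7 ± 9.93 to 23.7 ± 5.53 FPKM (SD, n = 4 and 3; limma adjusted p = 0.00118 and 0.00203). Of 12 tested NF-kB target and cytokine genes 4 passed as higher and 1 as lower, and 7 missed the threshold, with 5 of the 12 log2 fold changes below 0 and a median of 0.52. Tnfaip3 (A20), an NF-kB-induced inhibitor of this signalling, rose from 11.3 ± 1.69 to 73.9 ± 22.6 FPKM, and Nfkbia from 91.3 ± 5.66 to 238 ± 44.9 FPKM (SD, n = 4 and 3; limma adjusted p = 0.000727 and 0.00458). The cytokine genes Tnf and Il10 rose by 1.68 and 1.79 on the log2 scale, and Il1b fell from 53.3 ± 15.4 to 18.5 ± 9.63 FPKM (SD, n = 4 and 3; limma adjusted p = 0.0129, 0.0236 and 0.0199). The T cell marker sums given above moved with the genes that rose, and their part in these rises was not tested.

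**Figure D5:**
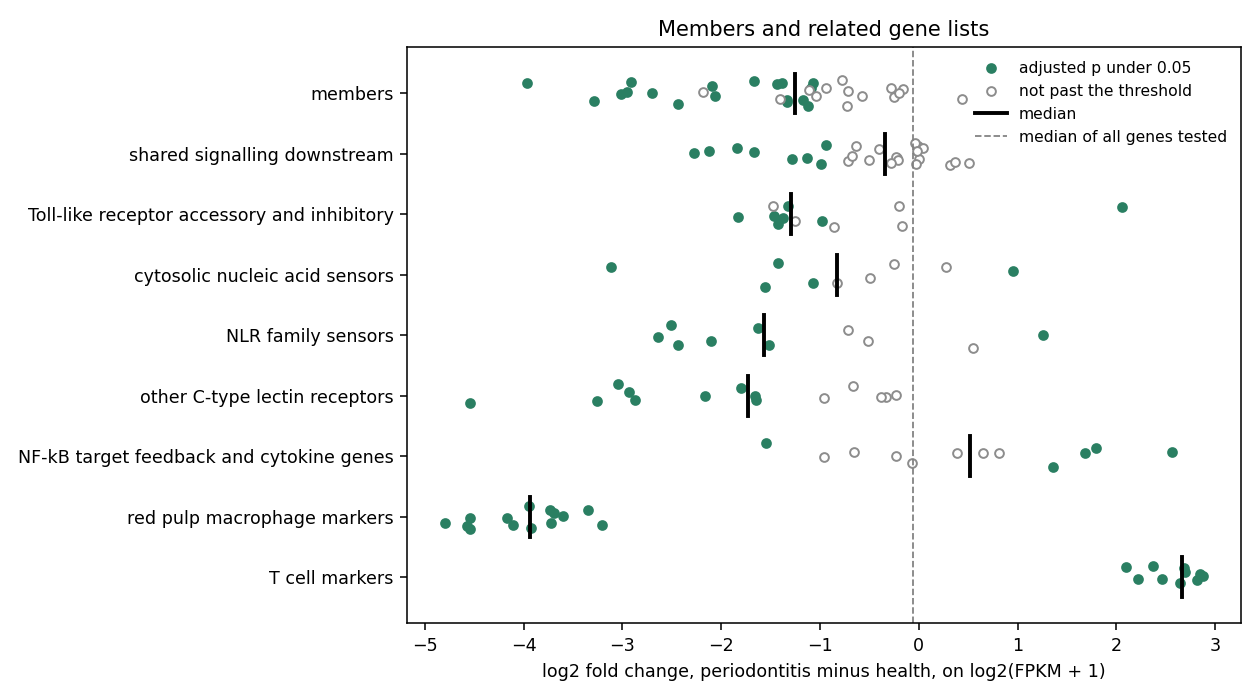
Log2 fold change (periodontitis minus health, on log2(FPKM + 1)) of every tested gene of the 33, of the 6 related lists and of the red pulp macrophage and T cell markers, one point per gene (filled: adjusted p under 0.05), with each list's median as a short bar and the median of all genes tested (-0.06) as a dashed line. The lists of receptors have medians below 0, on the side of the red pulp macrophage markers (median -3.94). The NF-kB target list (median 0.52) spreads over both sides of 0, and the T cell markers (median 2.66) all lie above it.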

How the data were processed

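Bulk RNA-seq libraries of sorted spleen cells were analysed from 1 table that the authors deposited, which holds FPKM per gene for 4 health and 3 periodontitis libraries. The submitters' processing notes name mm10, HISAT2 (2.0.5), DESeq2 and featureCounts (1.5.0-p3), without their role or settings. The strand setting is not given in the sources used here. Multiplied by gene length, the deposited values came out as whole reads within 0.001 of a read.

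Genes whose mean reached 1 FPKM were fitted here with limma (3.58.1, in R 4.3.3) on log2(FPKM + 1) over the whole table, with a trend in the variance, two-sided, and Benjamini-Hochberg adjustment over 12999 genes at a threshold of 0.05. This scale understates the change of low genes. Because the deposited unit is FPKM, a read-based test (limma voom) was an alternative only. Relative values and ratios carry 95% intervals from the pooled SD, and relative values an exact permutation test. No lists were tested as sets. The fit was first run on simulated data with known changes and the same spread for all genes. Those data are simpler than these libraries, so that the run does not show how the fit behaves here.

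All 33 genes are named. From each pathway list the text names all genes that passed if no more than 6 did, otherwise the 4 with the smallest p in each direction, and from marker lists the 3 with the highest mean. Members and lists were chosen with earlier results of these data known. The labels do not tie the 3 numbers that both groups share to a common source, and the main fit did not pair the libraries. Between libraries of equal number, correlations of the deviations from the group means were between -0.05 and 0.04. With 3 such pairs these correlations cannot exclude a common source. No 2 libraries agreed within sampling noise. The sequences are from RefSeq (GRCm38.p6) and GENCODE M21.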

Additional observations from a re-analysis of the deposited data

Results flagged for a closer look

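Of 33 groups of 4 health libraries, 1 for each gene, 4 held a library that stood apart from the other 3 by Dixon's criterion, which flags about 5% of groups by chance. Health 1 was that library for 3 genes: Cd14 at 209.8 FPKM against 73.0 to 86.3 FPKM, Tlr13 at 34.5 FPKM against 17.8 to 20.0 FPKM, and Cd180 at 28.9 FPKM against 19.7 to 21.2 FPKM. Health 1 also had the highest red pulp macrophage marker sum, 16033 FPKM. Tlr11 stood apart in health 4, at 4.14 FPKM against 2.32 to 2.58 FPKM.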

How the results depend on the processing

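The count of 18 lower genes was 28 with a fixed FPKM total, 20 when features under 200 bases were also left out, 16 under quantile normalization, 17 by limma voom, 13 without the filter, and 13 to 21 with 1 library left out. No gene was higher under any of the 18 settings. The labels do not say whether equal library numbers mark a shared source, and with the numbers as a replicate block the count was 12. Leaving that block aside, 12 of the 18 genes passed under every setting and 6 lost the call under some setting. Of those 12 only Tlr9 lost its call under the block (limma adjusted p = 0.0621), while Clec4d, outside the 18, passed (0.0423). Health 1 shares its number with no periodontitis library, so the block fit gave the log2 fold changes of the fit without health 1. Leaving out a library that goes against a fall favours a call of lower. The calls that genes gained in this way are therefore a description only. Traf6 alone turned in direction, to 0.15 without periodontitis 2, in a range of -0.36 to 0.15 with 1 library left out. Relative to the macrophage markers, Tlr8 ran from -0.41 to 0.36 with 1 library left out and was -1.68 with a pseudocount of 0.1, an alternative chosen after seeing the data. The cause was not tested. With 4 against 3 libraries no permutation p goes below 0.0571, and genes near 1 FPKM rest on few reads.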
